A study of Daphnia magna with 9 samples.

Results

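The data describe the water flea Daphnia magna under food shortage, comparing a line with frameshift mutations in the DNMT3.1 gene with its wild type. The members are 6 RNA-seq libraries of 9 in the series, namely 3 of the starved DNMT3.1 mutant and 3 of the starved wild type, and they were chosen by their labels for strain and condition. The other 3 libraries are of the nutrient-rich mutant and are given beside the starved ones only where they add a level. All animals were females, sampled as whole bodies on day 12 after birth at the release of the 2nd clutch, with the eggs taken out before RNA extraction. Each library pooled 5 daphnids, which had been kept singly, and each treatment was run 3 times. The starved daphnids of both genotypes received 8-fold less Chlorella algae than the nutrient-rich ones. The wild type is the NIES strain. The mutant is 1 line from 1 founder, in which injected Cas9 protein and guide RNA left frameshifts and early stop codons on both alleles, and the level of the protein was not measured in these data. The effects of the mutation and of anything else that is particular to this line cannot be told apart.

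DNMT3 proteins place methyl groups on cytosines that carry none, and DNMT1 copies the marks after DNA replication. DNMT3.1 of D. magna lacks most of the sequence motifs of a catalytically active methyltransferase, as does the mammalian cofactor DNMT3L. In crustaceans, growth of the body needs moulting: a new cuticle of chitin and protein is laid down under the old one, under control of ecdysteroid hormones, in the same days in which yolk proteins are made for the next clutch. The guide target is shown because it defines the mutant. It lies in DNMT3.1, comes from the supplementary text of the study and is written 5′ to 3′ with the PAM in capitals, and no position in a genome build was looked up for it.
DNMT3.1 guide target: ggaagaggtgtacgaactcaaTGG

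The mutated gene itself was still transcribed. DNMT3.1 (Dapma7bEVm006722t1) stood at 91.7, 119 and 85.3 CPM (reads of a gene per 1000000 reads, TMM-scaled) in the wild-type libraries and at 94.9, 43.1 and 66.5 CPM in the mutant libraries. The groups overlapped, and the difference did not pass the test (log2 fold change −0.53, SE 0.31, adjusted p = 0.277, edgeR). Since frameshifted transcripts are counted like intact ones, this level does not check the labels. In the nutrient-rich mutant the gene stood at 11.7, 4.76 and 10.5 CPM. The maintenance methyltransferase DNMT1 (Dapma7bEVm005001t1) stood at 12.4, 8.54 and 14.2 CPM in the wild type and at 16.8, 32.2 and 26.6 CPM in the mutant. Every mutant library was above every wild-type library, and the gene was called higher (log2 fold change 1.10, SE 0.29, adjusted p = 0.0413, edgeR). That call was lost without any one of the wild-type libraries, without mutant replicate 2 and without mutant replicate 3, with adjusted p between 0.0665 and 0.132. DNMT3.2 (Dapma7bEVm011900t1) was low, at 2.64, 2.35 and 2.15 CPM against 2.34, 1.33 and 1.12 CPM, and did not pass the test (adjusted p = 0.266, edgeR).

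The starved libraries held between 9270993 and 11806614 counted reads. The 10 most abundant features took 9.55% to 10.6% of the reads in the wild type and 8.6% to 8.94% in the mutant, and 14 features named as mitochondrial took 4.63% to 4.96% over all 6 libraries. Among the nutrient-rich libraries, replicate 2 stood apart, with 19.5% of its reads in its 10 most abundant features against 11.7% and 12.9% in the other two.

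Of 18166 features tested, 2439 were called different between the genotypes, which is 13.4% of those tested. A feature was called when its adjusted p in edgeR was under 0.05 and its fold change at least 1.5. In the mutant 1179 features were higher and 1260 lower, and the median log2 fold change over all tested features was 0.01. With library totals in place of TMM scaling the split was 1505 higher and 1061 lower. The changes were often large: 317 features rose at least 4-fold and 440 fell at least 4-fold. Their share of the reads shifted as well, in directions that follow from how the features were picked. The features called higher held 3.92%, 3.60% and 4.19% of the reads in the wild-type libraries and 8.23%, 13.1% and 10.9% in the mutant libraries. Those called lower held 13.8%, 13.3% and 14.5% of the wild-type reads and 6.58%, 5.27% and 5.79% of the mutant reads. The groups did not overlap for any of the called features, whereas 41.7% of all tested features did not overlap. The count fell to 1440 without wild-type replicate 1, 1572 without wild-type replicate 2 and 1314 without mutant replicate 3.

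**Figure D1:**
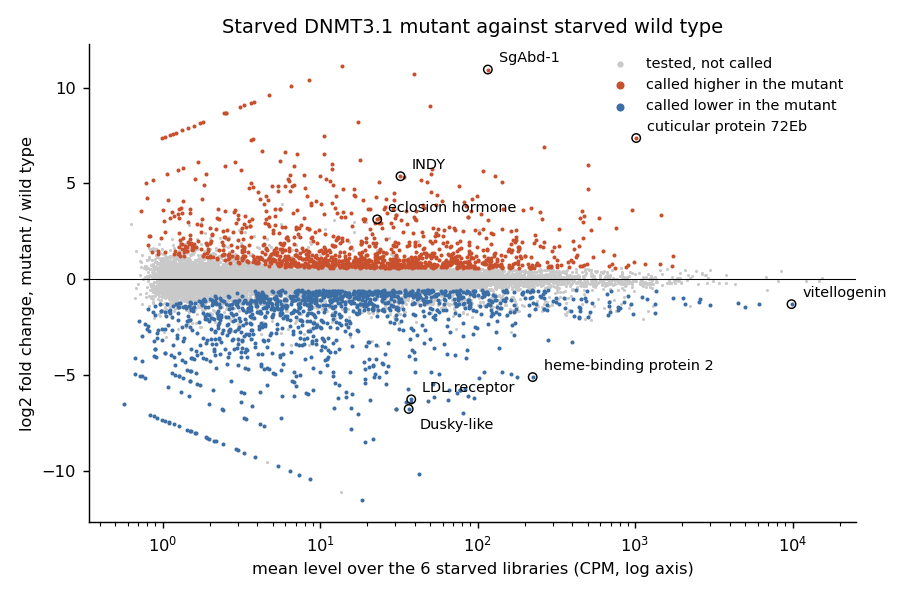
Each point is 1 tested feature, with its mean level over the 6 starved libraries in CPM on a log axis and its log2 fold change (mutant over wild type). Red points (1179) were called higher in the mutant, blue points (1260) lower and grey points were not called. The oblique rows of points at both edges are features with 0 counts in 1 group, whose fitted fold change is not a bound.

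The calls lay along the whole range of levels. Among features with a mean of 1 to 5 CPM, 4.18% were higher and 6.72% lower, and among those of 100 to 1000 CPM 9.92% were higher and 7.67% lower. Of the 114 features above 1000 CPM, 6 were higher and 15 lower. Genes without a name were called about as often as the others, with 987 of 6917 unnamed genes (14.3%) and 1343 of 10364 named genes (13.0%). For the descriptions of gene groups that follow, each gene is represented by its most abundant feature, and the background over all 17281 tested genes was 6.51% called higher and 6.97% called lower.

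The 3 mutant libraries did not stand equally far from the wild type. Mutant replicate 1 was the nearest, replicate 3 came next and replicate 2 was the farthest: across the 18166 tested features, which are not independent of each other, the Pearson correlation of log2 CPM with the wild-type libraries was 0.93 to 0.94 for replicate 1, 0.90 to 0.92 for replicate 3 and 0.87 to 0.89 for replicate 2, while the wild-type libraries correlated with each other at 0.97 to 0.98. The first principal component held 71.5% of the variance and placed the libraries in that order. Among the 2439 called features, 1891 (77.5%) changed least in mutant replicate 1 and 1793 (73.5%) changed most in replicate 2. Over all tested features these shares were 55.4% and 52.8%. Features of like level in all mutant libraries were fewer: in 521 called features (21.4%) the highest mutant library was less than 1.25 times the lowest after adding 0.5 CPM, against 47.0% of all tested features. The cause of the order was not tested.

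**Figure D2:**
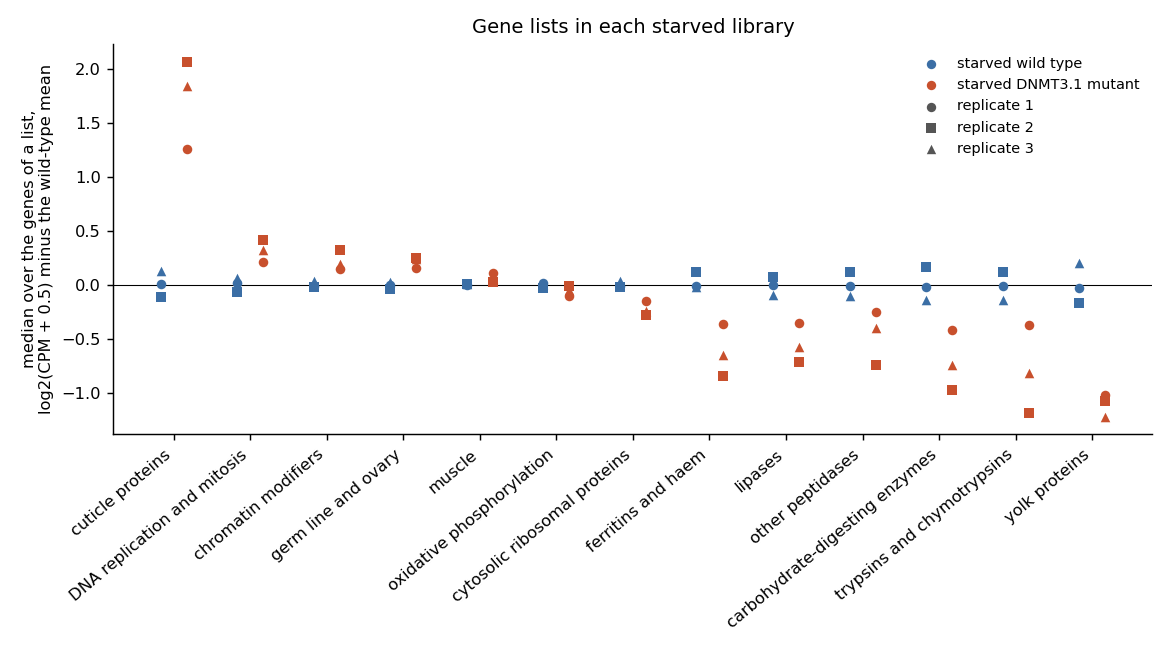
For 13 gene lists, each point is 1 starved library and gives the median over the genes of the list of log2(CPM + 0.5) minus the wild-type mean. Blue points are wild type, red points are mutant and the shape gives the replicate. Cuticle proteins lie at 1.27, 2.07 and 1.85 in mutant replicates 1, 2 and 3, and trypsins at −0.37, −1.19 and −0.81, whereas the yolk proteins lie at −1.02, −1.07 and −1.22.

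Cuticle proteins had the highest share of higher calls of the 39 lists. They are the structural proteins that, with chitin, make up the exoskeleton, and the genes were picked here by name. Of 126 tested cuticle protein genes, 69 were higher in the mutant (54.8%), 14 were lower (11.1%) and 43 were not called, and their median log2 fold change was 1.96. The summed level of the list moved less, from 7639, 7562 and 8041 CPM to 8967, 11062 and 9893 CPM. Of the 83 called genes, 76 changed least in mutant replicate 1 and 72 changed most in replicate 2. The lower count fell to 7 without wild-type replicate 1 or mutant replicate 3, and to 9 without wild-type replicate 2 or 3.

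The gene with the largest gain in reads was a cuticular protein 72Eb gene (Dapma7bEVm015211t1). It stood at 12.2, 2.77 and 21.7 CPM in the wild type and at 969, 3066 and 2029 CPM in the mutant. All mutant libraries were far above the wild type, with replicate 2 the highest and replicate 1 the lowest (log2 fold change 7.36, SE 0.93, adjusted p = 0.00637, edgeR). Another 72Eb gene (Dapma7bEVm027612t1) moved the other way, from 1086, 1010 and 1118 CPM to 511, 152 and 303 CPM, again with mutant replicate 1 nearest to the wild type (adjusted p = 0.0460). One more (Dapma7bEVm001607t1) fell from 1089, 1017 and 1066 to 474, 121 and 267 CPM (adjusted p = 0.0499). Both of these were looked up after their values were seen. Genes of one name were thus called in opposite directions, with both falls close to the 0.05 limit.

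Endocuticle structural glycoproteins of the SgAbd type, first described from the abdominal cuticle of a locust, were called in 1 direction only. Of 32 tested genes, 27 were higher and none was lower, with log2 fold changes from 0.20 to 10.94. The genes share a name, and whether reads were split between similar copies was not tested. Their summed level was 752, 590 and 883 CPM in the wild type and 2229, 4291 and 3355 CPM in the mutant. The largest change was in Dapma7bEVm010637t1, with 0.220, 0.107 and 0 CPM in the wild type and 130, 336 and 232 CPM in the mutant (log2 fold change 10.94, SE 0.73, adjusted p = 9.35e-04, edgeR). Cuticle genes that were nearly silent in the wild type and clearly present in the mutant also included Dapma7bEVm018568t1 (0.330, 0 and 0.307 CPM against 17.9, 26 and 19.4 CPM), cuticle protein1c (Dapma7bEVm003926t1, 0, 0 and 0.410 CPM against 9.65, 19.9 and 13.0 CPM) and cuticular protein 49Ag (Dapma7bEVm002060t1, 0.110, 0 and 0.102 CPM against 3.56, 7.70 and 5.87 CPM). Each of the 3 was called higher with an adjusted p between 2.01e-04 and 0.00233 (edgeR). The lower cuticle genes were led by larval cuticle protein A2B (Dapma7bEVm004406t1), at 18.6, 17.2 and 17.1 CPM against 0.508, 0.166 and 0.280 CPM (adjusted p = 4.28e-05), and by cuticle protein CB5 (Dapma7bEVm009997t1), at 8.03, 8.11 and 10.03 CPM against 0, 0 and 0.0932 CPM (adjusted p = 1.74e-04).

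The direction of the cuticle genes differed between scaffolds. The feature IDs carry a number that was read here as the scaffold of the authors' assembly. Among 43 scaffolds with at least 100 tested features, scaffold 2581 had the highest share of calls, with 63 features higher and 33 lower of 286 (33.6%). Of its 34 cuticle features, 27 were higher and 1 was lower. Most of these higher ones are SgAbd genes described above, so the counts overlap. Scaffold 311 held 14 cuticle features, of which 12 were higher and none was lower. In contrast, of 10 cuticle features on scaffold 24, 1 was higher and 5 were lower, and all 4 on scaffold 1361 were lower. Over all their features, scaffolds 687 and 944 leaned the other way, with 47 higher and 83 lower of 542, and 23 higher and 83 lower of 574.

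The chitin genes moved in both directions. Of 73 genes of chitin metabolism, 14 were higher and 10 lower, with a median log2 fold change of −0.45. The 8 obstructor-E genes, whose products bind chitin and organise the cuticle in insects, had 6 called higher and none lower, and their summed level went from 508, 371 and 624 CPM to 1431, 3268 and 2360 CPM. Of 4 chitin synthases, which make the polymer, 1 was called higher and none lower, and their median log2 fold change was −0.45. The called one, chitin synthase 2 (Dapma7bEVm002546t1), rose from 112, 101 and 131 to 247, 508 and 388 CPM (adjusted p = 0.0124, edgeR), and glutamine--fructose-6-phosphate aminotransferase (Dapma7bEVm000306t1), which opens the pathway to its sugar precursor, rose from 148, 179 and 128 to 301, 708 and 518 CPM (adjusted p = 0.0218). Chitinases, which degrade chitin, were split, with 4 higher and 6 lower of 27, and their summed level fell from 3200, 3897 and 2695 CPM to 2156, 1403 and 1702 CPM. Chitin deacetylases, which modify the polymer, were split as well. Chitin deacetylase 3 (Dapma7bEVm005890t1) went from 7.70, 9.18 and 14.5 to 0.914, 0.497 and 0.466 CPM, whereas chitin deacetylase 4 (Dapma7bEVm004719t1) went from 14, 12.8 and 16.7 to 89.8, 243 and 172 CPM (adjusted p = 7.43e-04 and 0.00496, edgeR). Apart from the genes picked by rule, the members named here were chosen after their values were seen. The list counts fell to 7 higher without wild-type replicate 1 or mutant replicate 3 and 9 higher without wild-type replicate 2, and to 4 to 6 lower without any of the same 3 libraries. Without mutant replicate 1 there were 26 lower.

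Among 33 genes of the apical matrix and cuticle shaping, 11 were lower, 5 higher and 17 not called. Dusky-like proteins are membrane proteins with a zona pellucida domain that in Drosophila shape the cuticle above each cell. Of 4 tested, 3 were lower. The strongest (Dapma7bEVm010243t1) stood at 68.6, 65.1 and 83.6 CPM in the wild type and at 0.813, 0.580 and 0.559 CPM in the mutant. Mutant replicate 1 was the nearest to the wild type, but at so few reads the order of the mutant libraries cannot be read (log2 fold change −6.79, SE 0.18, adjusted p = 3.12e-06, edgeR). The lower count was 7 without mutant replicate 3.

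The hormone genes that time moulting were called often and in both directions. Of 25 tested genes of ecdysteroid synthesis and response, 7 were higher (28%) and 7 lower (28%). Without wild-type replicate 1, 4 were higher and 5 lower. In insects the hormone pulse turns on nuclear receptors in a set order, and FTZ-F1 comes up after HR3 once the pulse has passed. FTZ-F1 (Dapma7bEVm011018t1) stood at 24.0, 26.9 and 29.5 CPM in the wild type and at 50.1, 85.6 and 67.4 CPM in the mutant. All mutant libraries were above the wild type, in the usual order of replicates (log2 fold change 1.34, SE 0.20, adjusted p = 0.00676, edgeR). HR3 (Dapma7bEVm009766t1) fell from 15.5, 15.9 and 16.9 to 1.12, 2.24 and 1.68 CPM (log2 fold change −3.24, SE 0.23, adjusted p = 2.50e-04). The ecdysone-induced receptor E78C (Dapma7bEVm004624t1) fell from 16.2, 20.8 and 19.5 to 2.54, 0.745 and 1.86 CPM, and the orphan receptor HR38 (Dapma7bEVm024247t1) fell from 170, 123 and 198 to 58.1, 37.2 and 41.5 CPM (adjusted p = 0.00121 and 0.00528).

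The receptor of the hormone itself rose modestly. The ecdysone receptor (Dapma7bEVm015282t1) stood at 25.4, 27.3 and 28.3 CPM against 42.8, 44.2 and 41.4 CPM, and its partner RXR (Dapma7bEVm006274t1) at 88.9, 97.8 and 94.4 CPM against 134, 161 and 140 CPM. Among the synthesis enzymes, ecdysone 20-monooxygenase (Dapma7bEVm010135t1), which makes the active hormone, fell from 66.1, 67.9 and 71.0 to 32.5, 30.0 and 30.2 CPM. This was one of the most even changes, with mutant libraries between 30.0 and 32.5 CPM (log2 fold change −1.14, SE 0.07, adjusted p = 1.74e-04, edgeR). A CYP307a1-like gene (Dapma7bEVm010925t1), whose Drosophila relatives act early in hormone synthesis, fell from 7.26, 9.18 and 10.4 to 2.95, 2.73 and 2.05 CPM. P450 18a1 (Dapma7bEVm003686t1), which inactivates the hormone in Drosophila, rose from 20.2, 15.9 and 28.6 to 68.8, 101 and 86.7 CPM (adjusted p = 0.00441). The list held further called genes, in both directions, that are not named here. The direction of hormone synthesis as a whole can therefore not be read from the enzymes named. Eclosion hormone, a neuropeptide that triggers shedding of the cuticle in insects, showed the largest rise of the list: the gene Dapma7bEVm007374t1 stood at 3.85, 4.48 and 5.94 CPM against 31.4, 51.9 and 40.8 CPM (log2 fold change 3.12, SE 0.24, adjusted p = 5.11e-04, edgeR). The other eclosion hormone gene (Dapma7bEVm006102t1) stood at 3.52, 4.27 and 4.20 CPM against 5.18, 4.06 and 5.50 CPM and was not called. None of 10 genes of the juvenile hormone and methyl farnesoate pathway was called in edgeR, with 2 of them at an unadjusted p under 0.05. DESeq2 called none of the 10 and limma-voom 1 lower.

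**Figure D3:**
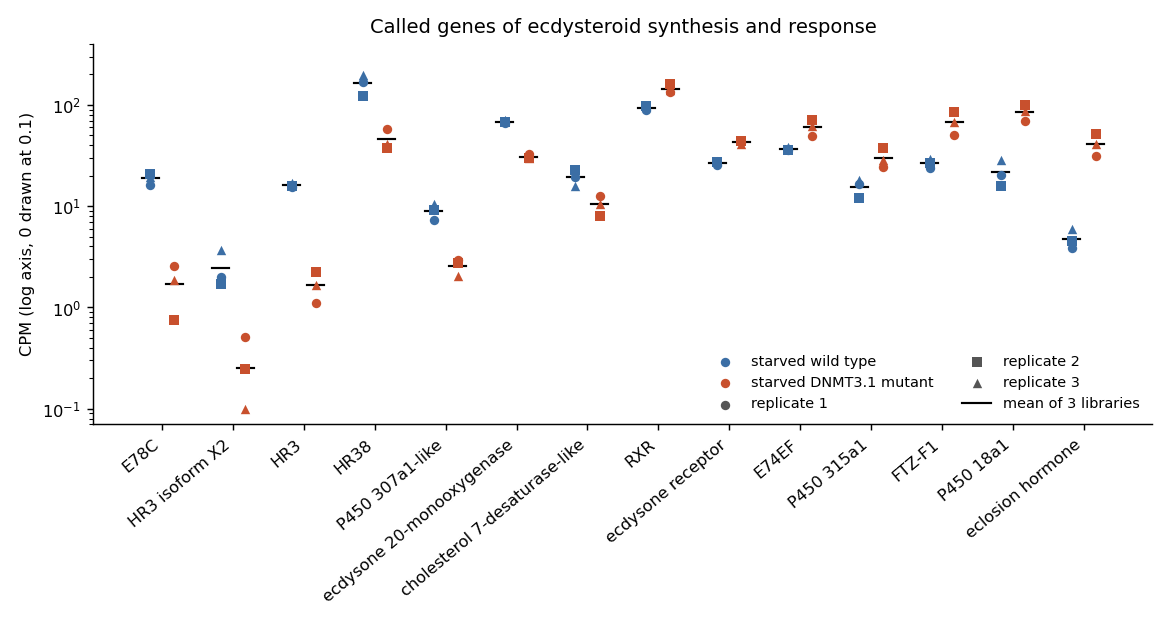
Levels in CPM (log axis) of the 14 called genes of ecdysteroid synthesis and response, with 1 point per starved library (blue wild type, red mutant, shape by replicate) and a bar at the mean of 3 libraries. From left to right the genes run from the largest fall (E78C) to the largest rise (eclosion hormone, 3.85 to 5.94 CPM in the wild type and 31.4 to 51.9 CPM in the mutant).

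Among the yolk protein genes every call was lower in the mutant. Vitellogenins are the lipid-carrying precursors of egg yolk, and in Daphnia several are fused to a superoxide dismutase domain. Of 18 tested genes, 11 were lower in the mutant (61.1%) and none was higher, with a median log2 fold change of −1.28. The list took a summed 42379, 38496 and 50501 CPM in the wild type and 17102, 18753 and 17427 CPM in the mutant, and 78896, 103828 and 91355 CPM in the nutrient-rich mutant. The most abundant gene (Dapma7bEVm020225t1) stood at 13413, 12228 and 16469 CPM against 4986, 6462 and 5510 CPM. Here mutant replicate 1 was the lowest, the reverse of the order seen in most called genes (log2 fold change −1.31, SE 0.14, adjusted p = 0.00272, edgeR). Vitellogenin 1 (vtg1, Dapma7bEVm024402t1) likewise stood at 8379, 7653 and 10167 CPM against 3081, 4085 and 3543 CPM (log2 fold change −1.29, SE 0.14, adjusted p = 0.00277). Another gene (Dapma7bEVm002960t1) followed the common order, from 7034, 6562 and 8224 to 3499, 1901 and 2518 CPM, and lost its call without mutant replicate 3 (adjusted p = 0.0604). Over the list, 5 of the 11 called genes changed least in mutant replicate 1. The vitellogenins are a gene family, and whether reads were split between similar members was not tested, so the levels of single members are uncertain. Not all members fell: a vitellogenin 2 gene (Dapma7bEVm009560t1) stood at 147, 134 and 171 CPM against 167, 190 and 177 CPM and was not called.

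Of 2 tested genes of the vitellogenin receptor, which takes yolk into the oocyte, 1 was higher in the mutant (Dapma7bEVm000342t1). It stood at 666, 695 and 682 CPM against 1187, 1054 and 1093 CPM (log2 fold change 0.71, SE 0.06, adjusted p = 6.60e-04, edgeR). The other receptor gene was not called (log2 fold change 0.14). As the libraries are whole bodies, a change in the number of cells of a type and a change of RNA per cell cannot be told apart for this or any other gene. Among 56 germ line and ovary genes, 8 were higher, 5 lower and 43 not called. The higher ones included the vitellogenin receptor gene above and piwi-like protein Siwi (Dapma7bEVm001397t1, 170, 160 and 175 CPM against 235, 309 and 282 CPM). The maelstrom homolog was also higher (Dapma7bEVm004746t1, 25.4, 19.8 and 23.0 CPM against 30.7, 45.0 and 39.3 CPM). Siwi and maelstrom are parts of the piRNA defence of the germ line and were chosen after their values were seen. Chorion peroxidase is an enzyme that hardens egg shells in insects, and of 20 tested genes of that name 5 were lower and 2 higher, with a summed level of 2703, 2809 and 2767 CPM against 2701, 2606 and 2591 CPM. These 5 were all the lower genes of the list, led by Dapma7bEVm015157t1 (14.5, 12.7 and 13.1 CPM against 0.711, 1.82 and 1.03 CPM, adjusted p = 5.14e-04). The higher count was 5 without wild-type replicate 2 or mutant replicate 3.

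Among genes of DNA replication and mitosis nearly all calls were higher. Of 110 tested genes, 32 were higher (29.1%), 1 was lower and 77 were not called, with a median log2 fold change of 0.34. Among the 6 MCM helicase subunits, which unwind DNA at replication origins, 5 were higher, and their summed level went from 162, 156 and 172 to 215, 299 and 268 CPM. Among 5 cyclins of types A, B and E, which drive the cell cycle, 4 were higher, from a sum of 406, 364 and 437 to 597, 787 and 677 CPM. Geminin (Dapma7bEVm003436t1), which keeps origins from firing again, had the lowest p of the list and stood at 62.1, 57.4 and 64.8 CPM against 89.7, 110 and 101 CPM (log2 fold change 0.70, SE 0.09, adjusted p = 0.00332, edgeR). The groups did not overlap in any of these sums, and mutant replicate 1 was always the nearest to the wild type. The single lower gene, centromere protein V (Dapma7bEVm015867t1), lost its call without any one library. The higher count was 14 without wild-type replicate 1, 11 without wild-type replicate 2, 19 without mutant replicate 2 and 11 without mutant replicate 3.

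Of 96 chromatin modifiers, 12 were higher, 1 was lower and 83 were not called. DNMT1 is in this list. Of 4 genes named UHRF1-like, 3 were higher. UHRF1 brings DNMT1 to hemimethylated DNA in mammals, and the summed level of these genes was 25.1, 26.1 and 30.3 CPM against 38.6, 57.9 and 47.6 CPM. The trithorax group gene osa (Dapma7bEVm010676t1), part of a chromatin remodelling complex, stood at 183, 189 and 178 CPM against 271, 338 and 304 CPM (log2 fold change 0.73, SE 0.09, adjusted p = 0.00233, edgeR). A gene named osa-like (Dapma7bEVm023089t1) was the one that fell, from 13.0, 13.9 and 17.8 to 4.17, 3.48 and 3.82 CPM. The higher count was 4, 5, 5 and 3 without wild-type replicates 1 and 2 and mutant replicates 2 and 3. Of 23 histone genes, 2 were higher and none was lower, and 1 was higher without any one wild-type library or without mutant replicate 3.

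Among the digestive enzymes called, most were lower in the mutant, while most members of each list were not called. D. magna secretes serine proteases, carbohydrate-splitting enzymes and lipases into its gut to digest algae. Of 118 trypsins and chymotrypsins, 26 were lower and 5 higher, with a median log2 fold change of −0.83. Of 126 other peptidases, 30 were lower and 4 higher. Of 78 carbohydrate-digesting enzymes, 27 were lower and 2 higher, the median being −0.77. Of 44 lipases, 9 were lower and 3 higher, and of 49 cathepsins and lysosomal enzymes 11 were lower and 2 higher. The summed level of the trypsins went from 15179, 20176 and 12536 CPM to 11632, 6870 and 8622 CPM, and that of the carbohydrate-digesting enzymes from 13162, 16010 and 11567 to 7787, 3767 and 5414 CPM.

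These enzymes varied widely between libraries, in the wild type as well. Endoglucanase 2 (Dapma7bEVm001537t1), a cellulose-splitting enzyme, stood at 1996, 2306 and 1900 CPM against 939, 339 and 566 CPM. The trypsin named epsilonTry (Dapma7bEVm010425t1) stood at 1733, 2372 and 1391 CPM against 919, 284 and 519 CPM. All mutant libraries were below the wild type, yet the gene did not pass the test (log2 fold change −1.67, SE 0.47, adjusted p = 0.0613, edgeR). The glycosidase named tobi (Dapma7bEVm003111t1), which responds to insulin and diet in Drosophila, stood at 94.0, 124 and 77.8 CPM against 59.9, 27.7 and 43.9 CPM, and did not pass either (log2 fold change −1.17, SE 0.32, adjusted p = 0.0577). Both passed without mutant replicate 1 (adjusted p = 0.0302 for each). The counts of lower genes depended on which library was left out: without wild-type replicate 1, without wild-type replicate 2 and without mutant replicate 3 there were 12, 18 and 13 trypsins, 13, 14 and 12 other peptidases, 8, 10 and 6 carbohydrate-digesting enzymes, 2, 2 and 2 lipases, and 7, 7 and 7 cathepsins. There were 15 carbohydrate-digesting enzymes without wild-type replicate 3. Without mutant replicate 2 there were 20 other peptidases and 5 lipases. Without mutant replicate 1 the counts rose to 43 trypsins, 49 other peptidases, 38 carbohydrate-digesting enzymes, 16 lipases and 17 cathepsins.

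A few members of these lists moved more evenly. Carboxypeptidase M-like (Dapma7bEVm005081t1) stood at 24.4, 25.9 and 22.5 CPM against 2.44, 1.66 and 1.77 CPM (log2 fold change −3.64, SE 0.17, adjusted p = 4.28e-05, edgeR). Serine proteinase stubble (Dapma7bEVm022733t1), whose Drosophila namesake works in the epidermis and not in the gut, stood at 73.1, 77.6 and 71.9 CPM against 27.8, 21.0 and 28.1 CPM. Cathepsin L1 (Dapma7bEVm023392t1) is a protease of lysosomes and gut fluid. It stood at 14, 12.5 and 17.5 CPM in the wild type and had no read in any starved mutant library. For cathepsin L1 and carboxypeptidase M-like, evenness among the mutant libraries cannot be read, as reads there were absent or few. Trehalase (Dapma7bEVm005872t1), which splits the sugar trehalose, rose instead. It went from 75.1, 72.1 and 78.5 to 142, 164 and 146 CPM (log2 fold change 1.0, SE 0.08, adjusted p = 4.18e-04, edgeR).

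The citrate carrier INDY (Dapma7bEVm010715t1), whose reduced expression lengthens life in Drosophila, showed the strongest rise of any transporter named by the rule. It stood at 1.32, 2.03 and 1.23 CPM in the wild type and at 38.9, 90.2 and 60.9 CPM in the mutant, with the libraries in the common order (log2 fold change 5.37, SE 0.44, adjusted p = 0.00143, edgeR). In the nutrient-rich mutant it stood at 14.4, 4.35 and 12.7 CPM. Of 42 sugar transporters, 9 were higher and 5 lower. Sugar transporter 8 (Dapma7bEVm003185t1) stood at 51.1, 49.9 and 54.3 CPM against 226, 368 and 311 CPM, and a glucose transporter member 6 gene (Dapma7bEVm015291t1) at 21.6, 24.2 and 22.6 CPM against 4.98, 3.73 and 4.29 CPM. The trehalose transporters named Tret1 were split, with 5 higher and 4 lower of 22. Their summed levels were 434, 520 and 392 CPM against 520, 543 and 521 CPM. Of 171 other solute carriers, 14 were higher and 17 lower, and of 70 ABC transporters, which pump lipids and foreign compounds, 9 were higher and 10 lower. The lower solute carriers numbered 7 without wild-type replicate 1 or mutant replicate 3, 9 without wild-type replicate 2 or mutant replicate 2, and 32 without mutant replicate 1. For ABC transporters there were 5 higher and 5 lower without wild-type replicate 1 or mutant replicate 3, and 6 higher and 6 lower without wild-type replicate 2. The sugar transporters were 6 higher and 2 lower without mutant replicate 3, 3 lower without wild-type replicate 1 and 8 lower without mutant replicate 1.

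Genes of lipid handling moved both ways. Of 68 genes, 10 were lower and 8 higher, with a median log2 fold change of −0.02. The fall of lowest p in this list was in a putative low density lipoprotein receptor (Dapma7bEVm002563t1), at 73.1, 68.3 and 83.3 CPM against 0.914, 0.911 and 1.03 CPM. In the starved mutant this gene rested on few reads, so the likeness of the mutant libraries cannot be read from it (log2 fold change −6.28, SE 0.14, adjusted p = 1.98e-06, edgeR). Its levels in the nutrient-rich mutant, which carries the same mutation, were 20.3, 58.4 and 51.6 CPM. Fatty acyl-CoA reductase genes, whose products make the alcohols of waxes, were called in opposite directions, with Dapma7bEVm001190t1 at 1.76, 1.28 and 0.819 CPM against 5.79, 12.1 and 9.23 CPM, and Dapma7bEVm015448t1 at 41.1, 43.2 and 37.2 CPM against 20.4, 16.2 and 19.0 CPM. Without mutant replicate 3, 2 of the list were higher and 6 lower. Without wild-type replicate 1 or 2, 3 were higher and 6 lower, and 4 were higher without wild-type replicate 3. Without mutant replicate 1, 16 were lower.

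Collagens and their modifying enzymes were mixed. Collagen alpha-3(VI) (Dapma7bEVm003455t1) stood at 68.6, 71.2 and 73.9 CPM against 2.34, 0.331 and 1.40 CPM, whereas fibril-forming collagen (Dapma7bEVm009540t1), the abundant one, stood at 966, 1037 and 1155 CPM against 1483, 2186 and 1809 CPM. Of 10 prolyl 4-hydroxylases, which make collagen stable, 3 were lower, led by Dapma7bEVm010714t1 (78.2, 73.8 and 73.5 CPM against 15.8, 14.4 and 12.0 CPM, log2 fold change −2.42, SE 0.11, adjusted p = 4.12e-05, edgeR). The list as a whole had 3 higher and 8 lower of 43. One gene was higher without wild-type replicate 1 or 2 or mutant replicate 3, and 2 without wild-type replicate 3. The call of the fibril-forming collagen was lost without wild-type replicate 1, wild-type replicate 2 or mutant replicate 3 (adjusted p between 0.0549 and 0.0597).

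Enzymes of detoxification, sugar transfer and haem were lower more often than higher. Of 164 conjugation and antioxidant enzymes, 37 were lower and 6 higher, but 9 of the 37 are vitellogenins that carry a superoxide dismutase name, and 28 of the other 152 genes were lower. Of 43 cytochrome P450 genes, 10 were lower and 5 higher. P450 4c3 (Dapma7bEVm002285t1) was a higher one, at 48.7, 45.9 and 49.3 CPM against 124, 180 and 149 CPM. Of 192 carbohydrate sulfotransferases and glycosyltransferases, 31 were lower and 6 higher. Carbohydrate sulfotransferase 5-like (Dapma7bEVm001987t1), of a family that adds sulfate to sugar chains outside the cell, stood at 22.5, 19.1 and 21.6 CPM against 0.813, 1.16 and 0.746 CPM (log2 fold change −4.51, SE 0.19, adjusted p = 3.19e-05, edgeR). Galactose-3-O-sulfotransferase 2 (Dapma7bEVm018422t1) stood at 148, 146 and 163 CPM against 7.01, 0 and 1.68 CPM, and this call was lost without mutant replicate 3 (adjusted p = 0.0655).

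Of 18 genes for ferritins and haem, 6 were lower and 2 higher. Heme-binding protein 2-like (Dapma7bEVm001221t1) was among the largest falls of an abundant gene, at 435, 393 and 478 CPM against 22.4, 5.88 and 9.60 CPM (log2 fold change −5.12, SE 0.53, adjusted p = 0.00366, edgeR). Of 8 genes of haem synthesis, 3 were lower and none higher, and their summed level was 470, 462 and 483 CPM against 331, 258 and 266 CPM. Haem is the oxygen-binding group of haemoglobin, and none of the 11 haemoglobin genes was called in edgeR, DESeq2 or limma-voom, with 3 of them at an unadjusted p under 0.05 in edgeR. Without wild-type replicate 1, 3 P450 genes, 20 conjugation enzymes, 20 transferases and 4 haem genes were lower. Without mutant replicate 3 these counts were 4, 16, 15 and 4, and without wild-type replicate 2 they were 6, 24, 19 and 4. Without mutant replicate 2, 5 P450 genes were lower, and without mutant replicate 1 the haem genes numbered 10.

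Immune genes were divided as well, with 12 higher and 15 lower of 110. C-type lectins bind sugars on microbes. One of them (Dapma7bEVm018675t1) fell from 144, 128 and 164 to 3.05, 1.33 and 2.70 CPM, whereas another (Dapma7bEVm010422t1) rose from 88.8, 71.5 and 106 to 519, 1086 and 820 CPM. Both passed the test, with log2 fold changes of −5.96 (SE 0.26) and 3.19 (SE 0.32) and adjusted p of 9.66e-05 and 0.00337 in edgeR. The complement-like gene C1q and tumor necrosis factor-related protein 2 (Dapma7bEVm009551t1) stood at 242, 270 and 249 CPM against 558, 650 and 595 CPM. The mutant libraries were close together and more than 2-fold above the wild type (adjusted p = 1.72e-04). The counts were 8 higher without wild-type replicate 1 or mutant replicate 3, 10 lower without wild-type replicate 1 or 2, and 26 lower without mutant replicate 1.

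Other groups were called at shares below or near those over all genes. No gene was called among 45 proteasome, 74 oxidative phosphorylation, 73 mitochondrial ribosomal protein and 31 muscle genes in edgeR, and 3, 9, 7 and 10 of these had an unadjusted p under 0.05. DESeq2 called none of them, and limma-voom called 1 lower gene of oxidative phosphorylation and 1 of muscle. Of 78 cytosolic ribosomal proteins, 1 was higher and 1 lower, while 63 had an unadjusted p under 0.05 and the median log2 fold change was −0.22. Their summed level was 49210, 49237 and 51307 CPM in the wild type and 45413, 41131 and 42049 CPM in the mutant, so the groups did not overlap but the change was below the 1.5-fold limit. Of 78 chaperones 1 was higher and 1 lower, of 202 genes of neurons and eye 11 were higher and 11 lower, of 57 homeobox factors 4 and 2, of 25 transposon-derived proteins none and 1, of 18 autophagy genes 1 and 1, of 120 genes of ribosome biogenesis and translation 2 and 3, and of 45 genes of glycolysis and the TCA cycle 2 and 2. In the last list pyruvate kinase (Dapma7bEVm002674t1), which closes glycolysis, fell from 131, 146 and 145 to 83.7, 84.4 and 75.9 CPM, and the kinase that switches off pyruvate dehydrogenase (Dapma7bEVm004774t1) rose from 34.1, 36.1 and 32.0 to 51.7, 55.2 and 53.7 CPM (adjusted p = 9.62e-04 and 0.00218, edgeR). Among 70 genes of insulin and nutrient sensing, 3 were higher and 2 lower. The calls for neurons and eye were 6 higher without mutant replicate 3, 7 higher and 5 lower without wild-type replicate 1, and 6 lower without mutant replicate 3. One of the lower ones among the nutrient sensing genes, Integrator complex subunit 5 (Dapma7bEVm014991t1), is no nutrient sensor and entered by its name. The other is an insulin/IGF/relaxin peptide gene (Dapma7bEVm013141t1), at 35.4, 33.9 and 32.2 CPM against 24.1, 14 and 18.3 CPM, while a further one (Dapma7bEVm002948t1) was higher, at 0.550, 0.427 and 0.102 CPM against 1.42, 5.05 and 3.08 CPM.

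**Figure D4:**
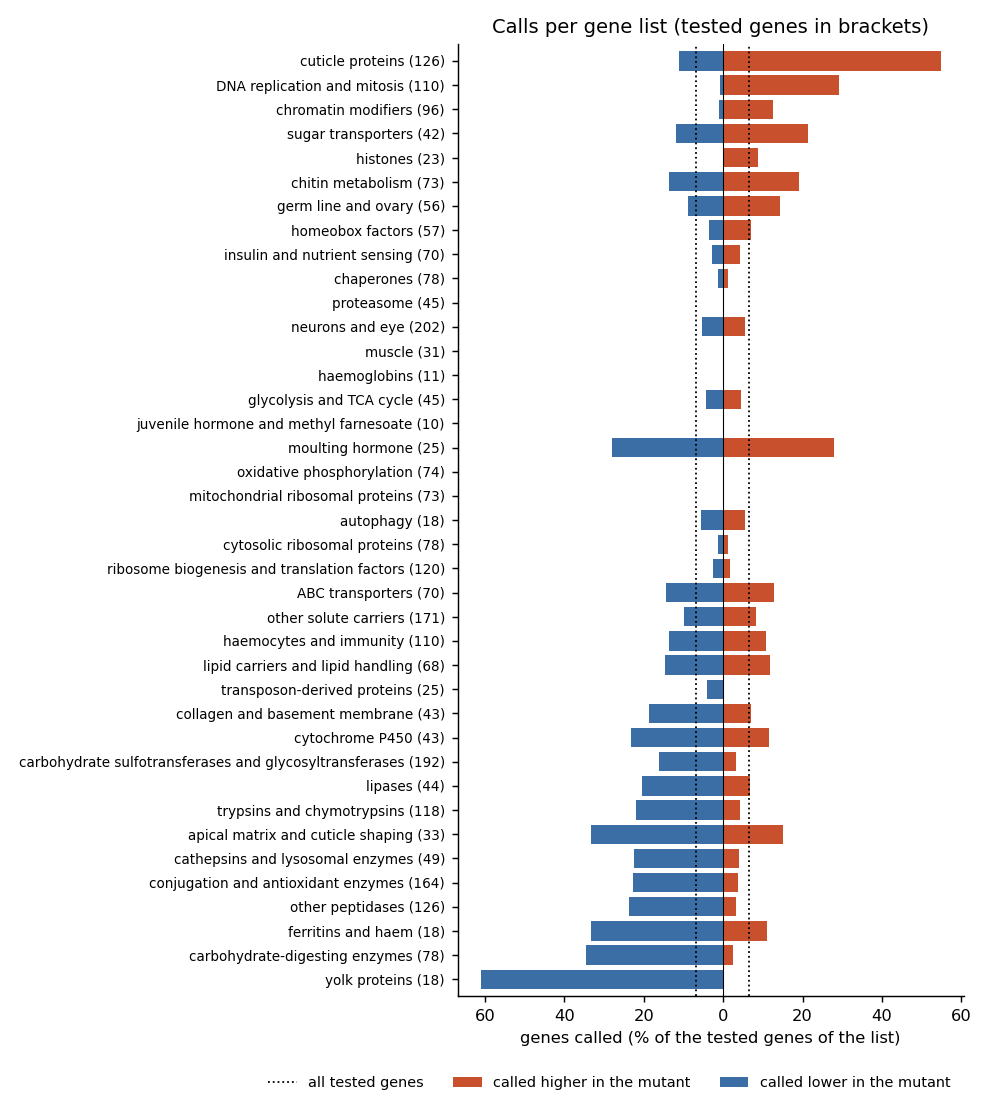
Share of the tested genes of each of 39 gene lists that was called higher (red, to the right) or lower (blue, to the left) in the starved mutant, with the number of tested genes in brackets. Dotted lines mark the shares over all tested genes, 6.51% higher and 6.97% lower. Cuticle proteins reach 54.8% higher and yolk proteins 61.1% lower.

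The gene ontology (GO) terms of the expression table give the same data another grouping. A term was described when it held at least 20 tested genes. Among genes with a biological process term, 5.34% were higher and 6.09% lower. The highest shares of higher genes were in carbohydrate transmembrane transport (8 higher and 4 lower of 23), regulation of receptor activity (13 and 3 of 57), chitin metabolic process (23 and 16 of 102), positive regulation of cell proliferation (11 and 3 of 52), hydrogen ion transmembrane transport (9 and 5 of 55) and DNA replication (4 and 0 of 25). The highest shares of lower genes were in lipid transport (0 higher and 14 lower of 36), peptide catabolic process (1 and 9 of 24), proteolysis involved in cellular protein catabolism (2 and 6 of 20), chitin catabolic process (2 and 6 of 22), carbohydrate metabolic process (10 and 32 of 141) and extracellular matrix organization (5 and 9 of 42). Among genes with a molecular function term, 6.51% were higher and 6.47% lower. Structural constituent of cuticle came first with 80 higher and 15 lower of 145, followed by sugar:proton symporter activity (9 and 4 of 24) and protein kinase binding (9 and 1 of 37). Lower genes were most frequent in lipid transporter activity (0 higher and 14 lower of 33), peptide binding (1 and 9 of 23), sulfotransferase activity (2 and 9 of 26) and copper ion binding (1 and 9 of 28). Among genes with a cellular component term, 5.70% were higher and 6.89% lower. There the extracellular matrix (35 higher and 11 lower of 101), ABC transporter complex (7 and 2 of 21) and centrosome (10 and 0 of 53) led the higher genes, and the extracellular space (19 higher and 56 lower of 249), intracellular membrane-bounded organelle (2 and 14 of 64) and lysosome (2 and 10 of 50) led the lower ones. These shares are counts without a test, and terms share genes.

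A set of 51 called features had reads in only one starved genotype. Of these, 21 had none in any wild-type library and 30 had none in any mutant library. They were 21 of 21 and 30 of 32 tested features without reads in that genotype. The filter kept such features only for their reads in the other genotype, so these shares do not measure how common the pattern is. The folds below are lower bounds against a floor of 3 reads over the 3 libraries of the empty group. Putative collagen alpha-1(XIII) (Dapma7bEVm015207t1), a membrane-bound collagen, stood at 34.5, 24.2 and 24.6 CPM in the mutant, at least 261-fold higher than in the wild type. RRP4 (Dapma7bEVm005705t1), a subunit of the exosome that degrades RNA, stood at 15.8, 19.4 and 15.5 CPM, at least 159-fold higher. For F-box only protein 31-like (Dapma7bEVm011816t1), of a family that selects proteins for degradation, the mutant levels were 11.8, 9.36 and 7.36 CPM and the lower bound was 89.4-fold. A cuticular protein 49Ag gene (Dapma7bEVm023889t1) stood at 6.81, 18.7 and 13.6 CPM, at least 123-fold higher, and its call was lost without mutant replicate 3 (adjusted p = 0.0541, edgeR). Mutant replicate 1 was the highest of the collagen gene and the lowest of the cuticle gene.

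In the other direction the unnamed gene Dapma7bEVm027991t1 stood at 18.4, 14.4 and 18.7 CPM in the wild type, at least 187-fold above the mutant. Cathepsin L1 was at least 159-fold higher in the wild type, and the unnamed gene Dapma7bEVm005879t1, at 9.24, 17.5 and 11.7 CPM, was at least 139-fold higher. The most abundant one (Dapma7bEVm007125t1) was uneven, at 18.4, 15.0 and 77.6 CPM, and its call was lost without any of the libraries other than wild-type replicate 3 (adjusted p between 0.0810 and 0.0999). A pair of features named protein roadkill, a regulator of protein degradation in hedgehog signalling in Drosophila, carry the same scaffold number. One (Dapma7bEVm029242t1) was read in the mutant only, at 4.47, 6.05 and 4.57 CPM, and the other (Dapma7bEVm007601t1) in the wild type only, at 3.08, 3.41 and 2.15 CPM. A further tested feature of this name was read in both, at a mean of 9.40 CPM in the starved wild type and 18.4 CPM in the starved mutant. These were looked up after their values were seen.

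Absence in the starved mutant was seldom absence in the line. Of the 30 features without reads in the starved mutant, 17 had reads in all 3 nutrient-rich mutant libraries, 11 in some of them and 2 in none. Cathepsin L1 stood at 5.90, 2.85 and 7.29 CPM there and Dapma7bEVm027991t1 at 1.61, 75.6 and 56.5 CPM. Of the 21 features without reads in the starved wild type, 6 had reads in all 3 nutrient-rich mutant libraries, 11 in some and 4 in none. RRP4 and F-box only protein 31-like were among the 6, at 6.75, 26.4 and 8.66 CPM and at 9.44, 19.8 and 11.3 CPM, so they were read in all 6 mutant libraries and in no wild-type one.

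**Figure D5:**
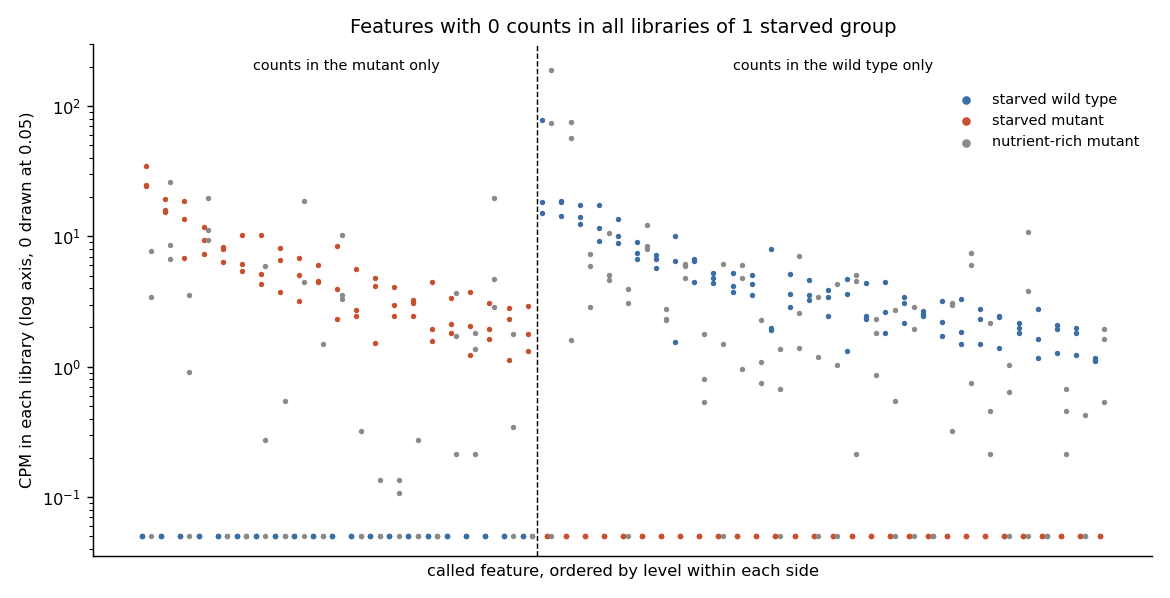
Levels in CPM (log axis, 0 drawn at 0.05) of the 51 called features without reads in one starved genotype, with 1 point per library: blue starved wild type, red starved mutant, grey nutrient-rich mutant. Left of the dashed line are the 21 features read in the mutant only, right of it the 30 read in the wild type only, where 17 have grey points above 0 in all 3 nutrient-rich libraries.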

How the data were processed

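Whole-body RNA of D. magna was enriched with oligo(dT) beads and sequenced as paired reads. The authors mapped the reads to the wFleaBase genome in CLC Genomics Workbench and deposited total gene read counts and RPKM values (reads scaled for feature length and mapped reads) for 47109 features and 9 libraries. Per the deposited table no replicates were pooled. Whether strand was used in counting was not stated. Further deposited tables hold only the authors' own fold changes and p-values and were not used. Levels are CPM from the counts with TMM factors, those of nutrient-rich libraries scaled over all 9 libraries, and RPKM was not needed for any value.

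Features were kept by filterByExpr and tested on the counts of the 6 starved libraries alone in edgeR 4.0.16 (R 4.3.3, robust quasi-likelihood F-test, Benjamini-Hochberg over all 18166 features). The SE is the size of the log2 fold change divided by the root of F. Nothing was called below 1.5-fold or at an adjusted p of 0.05 or more. Alternatives were DESeq2 1.42.0, limma 3.58.1 (voom with quality weights), scaling by library totals or RLE, other filters, thresholds and libraries, a replicate block, leaving out each library, and, added after seeing the data, counts summed per gene ID. The code was tested on simulated counts.

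The comparison, the members and all 39 lists were chosen with earlier results of these data known. Lists are patterns on gene names, and the scaffold is the number in the feature ID. Named genes were those the study gives with an ID, the 8 largest fold changes in each direction among called named genes of at least 5 CPM, the 5 largest differences in CPM, the called gene of lowest p in each direction per list with at least 4 calls, and the most abundant features read in 1 group only. Other members named in the report were chosen after their values were seen. The study states that each treatment was repeated 3 times, and the p-values measure the spread between these libraries.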

Additional observations from a re-analysis of the deposited data

How the results depend on the processing

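Of 2439 calls (1179 higher, 1260 lower), all 9 libraries in the fit left 1327 (541 and 786), of which 1279 were among the 2439, whereas 8 libraries without nutrient-rich mutant replicate 2 gave 2479. A test against the 1.5-fold limit itself (glmTreat) left 1028 (483 and 545), and adjusted p alone gave 3705 (1935 higher). limma-voom gave 3872, with 2315 lower. DESeq2 (2766), library totals (2566), RLE (2426), no filter (2320), a mean of at least 5 CPM (1878) and counts summed per gene ID (2331, added after the data were seen) stayed within 1.5 times. Leaving out 1 library gave 1314 to 3280 calls, with 653 to 1442 higher and 661 to 1838 lower, the fewest without mutant replicate 3 and the most without mutant replicate 1. The cause was not tested, beyond the smaller number of samples. With the replicate number as a block, 1570 were called (771 higher, 799 lower). Libraries of the same number did not deviate together over all features (r of −0.06, −0.15 and −0.02). These correlations would miss a shared run that touches only some genes, so whether the numbers pair the samples is not known. Of 84 called genes named by rule, 12 lost the call without some library, and no direction reversed in any setting. Library totals move the median of all features to 0.10 and turn the sign of list medians that lie near 0, such as lipid handling (−0.02 to 0.07). With 3 libraries a group and 9270993 to 11806614 reads each, precision is lowest for rare transcripts, and all p-values measure the spread among 3 pools per genotype.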
